A study of Mus musculus with 3 samples.

Results

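Carbonic anhydrase genes were examined in RNA sequencing of mandibular condyles from 4-month-old mice. The 10 genes Car1, Car2, Car3, Car4, Car5b, Car8, Car9, Car12, Car13 and Car14 were found by their symbols among 26970 genes of the deposited table, and they had been chosen by hand with their FPKM in these libraries in view. For that reason their levels and differences are given as a description. The groups were WT (+/+), Dspp+/- and Dspp-/- mice on a C57BL/6 background, the mutants carrying a deletion of Dspp in every cell of the animal. Condyles were taken with cartilage and subchondral bone joined. Tissue of 3 animals was pooled for WT and for Dspp+/-, and the number behind the Dspp-/- pool is not given in the sources used here. Each genotype had 1 library, so that no test between genotypes was possible, and a difference between pools or libraries cannot be told apart from a difference between genotypes.

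Carbonic anhydrases convert carbon dioxide and water to bicarbonate and a proton, and back. In bone, the cytosolic enzyme of Car2 supplies protons to the osteoclast, which secretes them through a vacuolar proton pump to dissolve mineral, while chloride follows and bicarbonate leaves through an anion exchanger. In blood, the enzymes of Car1 and Car2 are abundant in red cells, which exchange bicarbonate for chloride through the product of Slc4a1. In skeletal muscle and fat, the main cytosolic form is that of Car3, an enzyme of low activity. Car13 also encodes a cytosolic enzyme, Car5b a mitochondrial one, Car4 one anchored to the outer cell surface by a lipid, and Car9, Car12 and Car14 enzymes that span the plasma membrane with the active site outside. Car8 encodes a related protein without this activity, which binds an inositol trisphosphate receptor.

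The cytosolic genes Car13, Car1, Car3 and Car2 lie in this order within 259.0 kb of chromosome 3, and the sequences below show how alike these relatives are. They are the window of 60 aligned coding bases without a gap that had the most positions identical in all 4 genes, from GENCODE M21 on GRCm38. The window crosses an intron in each gene and starts at coding base 313 in Car13 and Car1 and at coding base 310 in Car3 and Car2. Capitals mark the 36 bases that all 4 genes share. The genomic spans were chr3:14650736-14654901 on the plus strand for Car13, chr3:14770886-14776259 on the minus strand for Car1, chr3:14866880-14868366 on the plus strand for Car3 and chr3:14895099-14895552 on the plus strand for Car2.
Car13: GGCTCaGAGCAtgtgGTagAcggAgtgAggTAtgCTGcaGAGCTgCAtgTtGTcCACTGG
Car1: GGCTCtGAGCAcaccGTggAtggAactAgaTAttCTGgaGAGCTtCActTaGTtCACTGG
Car3: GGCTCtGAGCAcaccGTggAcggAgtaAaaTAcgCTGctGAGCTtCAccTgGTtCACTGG
Car2: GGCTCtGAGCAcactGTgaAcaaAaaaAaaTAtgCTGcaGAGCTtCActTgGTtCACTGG
Over the whole coding sequence these 4 genes were identical at 61.0% to 64.6% of aligned bases, against at most 58.7% for the other pairs of the 10 genes. The longest run shared by any pair was 30 bases, between Car2 and Car13. Of the 100-base sequences of each gene's exons, 2.57% in Car1 and 0% in the other 9 genes were also found in another gene. A read of 150 bases is longer than any run that a pair of members shared.

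Promoters from RefSeq (GRCm38.p6) were available for Car4, Car5b, Car9, Car12 and Car14. Those of Car9, the member known as a target of hypoxia-inducible factors, and Car12, the member furthest below WT in Dspp+/-, are shown as the 250 bases before the gene's start. Capitals mark ACGTG, the core of the hypoxia response element, on either strand.
Car9, chr4:43506776-43507025, plus strand: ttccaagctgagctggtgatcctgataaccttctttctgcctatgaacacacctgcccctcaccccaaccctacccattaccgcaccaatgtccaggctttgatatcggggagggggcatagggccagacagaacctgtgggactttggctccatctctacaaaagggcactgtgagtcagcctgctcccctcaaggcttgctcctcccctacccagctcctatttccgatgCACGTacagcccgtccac
Car12, chr9:66713436-66713685, plus strand: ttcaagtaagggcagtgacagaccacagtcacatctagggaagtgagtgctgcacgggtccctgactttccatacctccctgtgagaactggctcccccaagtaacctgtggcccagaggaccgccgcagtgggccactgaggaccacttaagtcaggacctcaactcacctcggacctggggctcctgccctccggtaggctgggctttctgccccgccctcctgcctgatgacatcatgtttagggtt
The Car9 promoter held ACGTG 18 bases before the start, and the Car14 promoter held it 7 bases before. GATAA, the core that GATA factors bind, was found in Car9 alone among the 5, at 227 bases before the start, and CANNTG, the E-box, likewise at 201 bases. No copy of these motifs was found in the windows of Car12, Car4 and Car5b. Among 32851 promoters of the same length, 16.6% held ACGTG, 22.6% GATAA and 66.2% CANNTG on either strand. A match is a description of the letters and not of a bound site.

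Values are FPKM, which is fragments per kilobase of exon, scaled to the fragments of the library. The depth recovered from them was 20241577 to 23613618 fragments, so that 1 fragment per kilobase of exon equals 0.0423 to 0.0494 FPKM. Mitochondrially encoded genes held 25.0% of summed FPKM in WT against 36.9% in Dspp+/- and 37.3% in Dspp-/-. The summed FPKM was itself larger in the mutant libraries, at 308500, 359600 and 349200 in the same order. Scaling without mitochondrial genes therefore shifted log2 ratios to WT by only 0.028 in Dspp+/- and 0.08 in Dspp-/-. The libraries also stood apart in Xist, the RNA of the inactive X chromosome, with 2 fragments in WT against 12084 in Dspp+/- and 10563 in Dspp-/-. Ddx3y, a gene of the Y chromosome, was at 22.5, 11.1 and 15.1 FPKM in the same order, so the libraries differed in genes of both sex chromosomes, and sex cannot be told apart from genotype here. Markers of condylar tissue were present in each library, with Col2a1 of chondrocytes at 761, 94.3 and 308 FPKM and Col1a1 of osteoblasts at 6675, 1719 and 3610 FPKM. Skeletal muscle genes were abundant too, with Acta1, the muscle actin, at 5609, 8162 and 7150 FPKM.

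A gene entered the comparisons if its FPKM averaged 1 or more, which 13026 genes and 9 of the 10 members did. Car9, with a mean of 0.470 FPKM, was not compared. A gene was called higher or lower where log2(FPKM + 1) differed by at least 1, that is 2-fold on that scale, which understates the difference of low genes. Folds are ratios of FPKM with a 95% exact (Clopper-Pearson) interval from the fragments, which covers counting error only and not the difference between animals or libraries. In Dspp+/- against WT, Car1 and Car2 were called higher, 2 of 9 members (22.2%) against 4.88% of all genes, and Car3 and Car12 lower, 2 of 9 (22.2%) against 2.86%. Against WT, Dspp-/- again had Car1 and Car2 called higher, 22.2% against 4.05% of all genes, and Car12 lower, 1 of 9 (11.1%) against 1.37%. Compared with Dspp+/-, Dspp-/- had Car3 called higher, 11.1% against 0.852%, and no member lower, against 0.798%. Because the members were picked with these values known, nothing is read from these shares. The median log2 ratio of the 9 members was 0.285 in Dspp+/- against WT, where that of all genes was 0.058. It was 0.304 in Dspp-/- against WT, beside 0.007 for all genes. The members' medians hide differences in opposite directions, which the plot of folds between libraries shows.

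**Figure D1:**
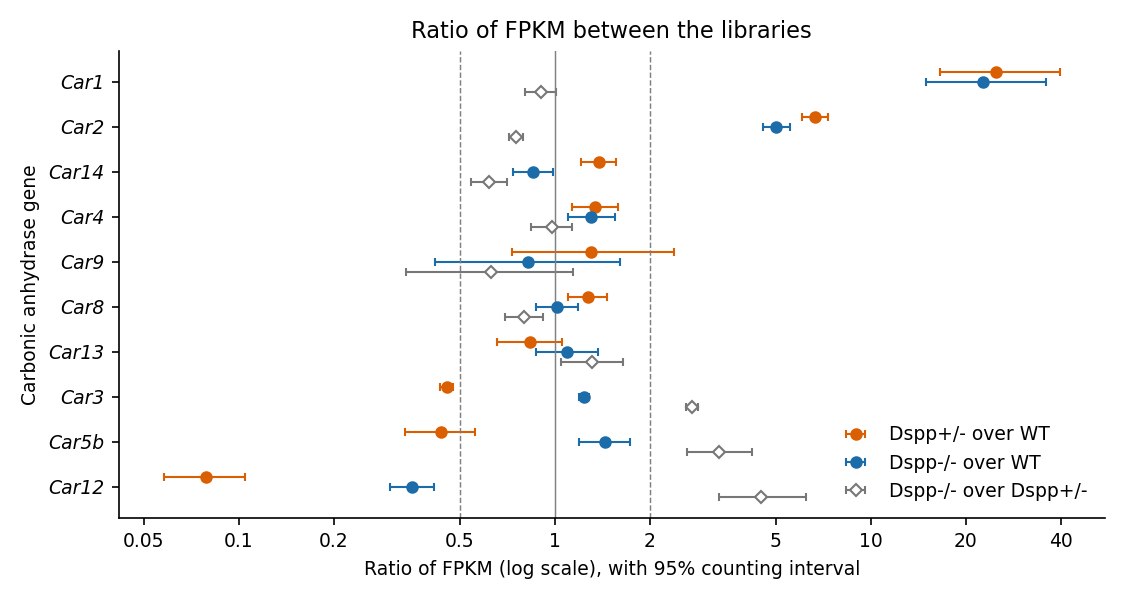
Ratio of FPKM between pairs of libraries for each carbonic anhydrase gene, on a log axis, with 95% counting intervals; dashed lines mark 2-fold. Car1 and Car2 lay to the right of the 2-fold line in both mutant libraries against WT, and Car12 to the left of it, while Car3 and Car5b lay on opposite sides of 1 in the mutant libraries.

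The cytosolic genes of red cells were the members furthest above WT. Car1 (ENSMUSG00000027556, chromosome 3, 14831276 to 14873428, minus strand, in the table's own positions, whose build is not named) was at 0.910 FPKM in WT against 22.7 in Dspp+/- and 20.6 in Dspp-/-. These values rested on 23, 670 and 571 fragments. Car1 was thus 25.0-fold (16.5 to 39.7) above WT in Dspp+/- and 22.6-fold (14.9 to 35.9) above WT in Dspp-/-, and the mutant libraries were close to each other, at a ratio of 0.904 (0.807 to 1.01) of Dspp-/- to Dspp+/-. In WT only 4.24% of compared genes were below Car1, in contrast to 87.1% in Dspp+/- and 86.1% in Dspp-/-. Car1 passed the filter on the mean through the mutant libraries, which set a low place in WT in advance.

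Car2 (ENSMUSG00000027562, chromosome 3, 14951333 to 14965830, plus strand) was at 9.83 FPKM in WT against 65.4 in Dspp+/- and 49.4 in Dspp-/-, from 482, 3739 and 2663 fragments. The WT library was the low one again. The level was 6.65-fold (6.05 to 7.33) higher in Dspp+/- than in WT and 5.03-fold (4.56 to 5.55) higher in Dspp-/-. Unlike Car1, Car2 also differed between the mutant libraries beyond counting error, at a ratio of 0.756 (0.719 to 0.795) of Dspp-/- to Dspp+/-. Per length, Car2 was 10.8 times the level of Car1 in WT, 2.88 times in Dspp+/- and 2.40 times in Dspp-/-.

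Erythroid marker genes were higher in the same libraries. Of 20 erythroid markers, 16 were called higher and none lower in each mutant library against WT, with a median log2 ratio of 2.10 in Dspp+/- and 2.07 in Dspp-/-. Their summed level was 974.4 FPKM in WT against 3891 in Dspp+/- and 3776 in Dspp-/-, no marker was at 0 though Hemgn and Trim58 had only 3 and 1 fragments in WT, and the most abundant were Hbb-bs, Hba-a1 and Hba-a2 of adult hemoglobin, at 425, 396 and 51.6 FPKM in WT. Alas2, the erythroid enzyme of heme synthesis, was at 7.48, 43.2 and 41.3 FPKM. Markers under 1 FPKM in WT, such as Hemgn and Trim58, passed the filter on the mean through the mutant libraries. This set their low place in WT in advance. The part of erythroid cells in the Car1 and Car2 values was not tested. In bulk tissue, fewer cells of a type and less RNA per cell cannot be told apart. Neutrophil markers were higher as well, all 13 of 13 in each mutant library, with S100a9, S100a8 and Ngp, genes of neutrophil granules and cytosol, among the most abundant and a summed level of 649.1, 2926 and 3880 FPKM. The genes nearest to Car1 in the pair of log2 ratios to WT, among 7127 genes that averaged 5 FPKM or more, were Ctse at a distance of 0.0801, Epx at 0.285 and Hemgn at 0.349. Ctse, a cathepsin, was at 0.468, 16.3 and 15.3 FPKM. Those nearest to Car2 were Csf3r, the granulocyte colony-stimulating factor receptor, at 0.122, Nfe2, an erythroid transcription factor, at 0.183 and Alas2 at 0.254.

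Car2 also belongs to the acid secretion of osteoclasts, and the genes of that machinery did not share its difference. Of 21 osteoclast acid secretion genes, none was called higher or lower in either mutant library, with a median log2 ratio of -0.473 in Dspp+/- and -0.14 in Dspp-/-. In Dspp+/-, 20 of the 21 were below WT, the exception being Atp6v0a1, a subunit of the proton pump, at 8.97, 12.9 and 11.0 FPKM. The most abundant in WT were Atp6v1g1, Atp6ap1 and Atp6v0b, also of the pump, at 93.2, 79.8 and 56.7 FPKM. Of 14 osteoclast markers, which share Tcirg1, Atp6v0d2, Clcn7 and Ostm1 with that list, 7 were called lower in Dspp+/- and 1 in Dspp-/-, with medians of -1.04 and -0.565. Their summed level was 2392 FPKM in WT against 891 in Dspp+/- and 1421 in Dspp-/-, and Ctsk, Acp5 and Mmp9, which encode enzymes of bone resorption, were the most abundant. So Car2 was highest in the library where the osteoclast markers were lowest, and their part in its level was not tested.

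Car3 (ENSMUSG00000027559, chromosome 3, 14928572 to 14937583, plus strand), the muscle and fat form, was the most abundant member in WT and Dspp-/- but not in Dspp+/-. Its level was 85.1 FPKM in WT against 38.8 in Dspp+/- and 105.4 in Dspp-/-, from 4937, 2622 and 6717 fragments. The Dspp+/- library was the low one here. The ratio of Dspp+/- to WT was 0.455 (0.434 to 0.477), which is 2.20-fold lower, and that of Dspp-/- to WT was 1.24 (1.19 to 1.28), which was not called. Between the mutant libraries, Dspp-/- was 2.72-fold (2.60 to 2.85) above Dspp+/-.

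Muscle markers as a list did not share the low value of Car3 in Dspp+/-. Of 12 fast-muscle genes compared, 1 was called higher in Dspp+/- and 2 lower, the median log2 ratio was 0.251, and the summed level was 13060, 17260 and 14220 FPKM. Acta1, Tnnt3 and Atp2a1 were the most abundant in WT, and Tnnc2, with 0, 1 and 0 fragments, was not compared. Myh2, the myosin of fast oxidative fibers, was the gene called higher, at 342, 706 and 359 FPKM. Myh4, the myosin of the fastest fibers, was called lower, at 124, 18.2 and 111 FPKM, and so was Actn3, an actinin of fast fibers, at 122, 31.0 and 89.5 FPKM. Pvalb, at 566.8, 294.5 and 453.4 FPKM, was just under the limit at -0.942 in Dspp+/-, whereas 8 of the 12 genes were above WT there. None of the 12 was called in Dspp-/- against WT and the median was -0.041. Slow-muscle genes had a median of 0.556 in Dspp+/- and -0.075 in Dspp-/-, with Myl2, a myosin light chain, the 1 of 5 called higher in Dspp+/-, at 4.81, 17.7 and 4.01 FPKM. Their most abundant genes in WT were Atp2a2 and Myoz2, at 44.0 and 43.4 FPKM. The part of fiber composition in the Car3 level was not tested.

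Some fat markers had the order of Car3, lowest in Dspp+/- and highest in Dspp-/-. Of 11 adipocyte genes compared, 1 was called higher and 1 lower in Dspp+/- against WT, 5 higher and none lower in Dspp-/- against WT, and 4 higher and none lower in Dspp-/- against Dspp+/-. The 4 were Cfd, Plin1, Cidec and Retn. As a list, fat markers did not share the low value of Car3 in Dspp+/-. Their median log2 ratio to WT was 0.549 in Dspp+/-, with 7 of 11 above WT, Adipoq and Fabp4 among them. In Dspp-/- it was 0.935, with all 11 above WT. Cfd, the fat-cell protease adipsin, was the gene called lower in Dspp+/-, at 23.5, 8.50 and 62.0 FPKM, and Plin1, which coats lipid droplets, was at 1.41, 0.501 and 4.61 FPKM. The gene called higher in Dspp+/- was Lpl, lipoprotein lipase, which muscle also expresses, at 50.0, 119.8 and 96.5 FPKM. Pnpla2, a lipase of both tissues, was at 48.4, 92.5 and 72.5 FPKM, and the summed level of the list was 179.1, 301.5 and 332.2 FPKM. The part of fat in the Car3 level was not tested. The genes nearest to Car3 by the same measure were Ighv3-6, an immunoglobulin segment, at a distance of 0.0832, Nr1d1, a clock repressor, at 0.14 and Ptn, a heparin-binding growth factor, at 0.257.

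**Figure D2:**
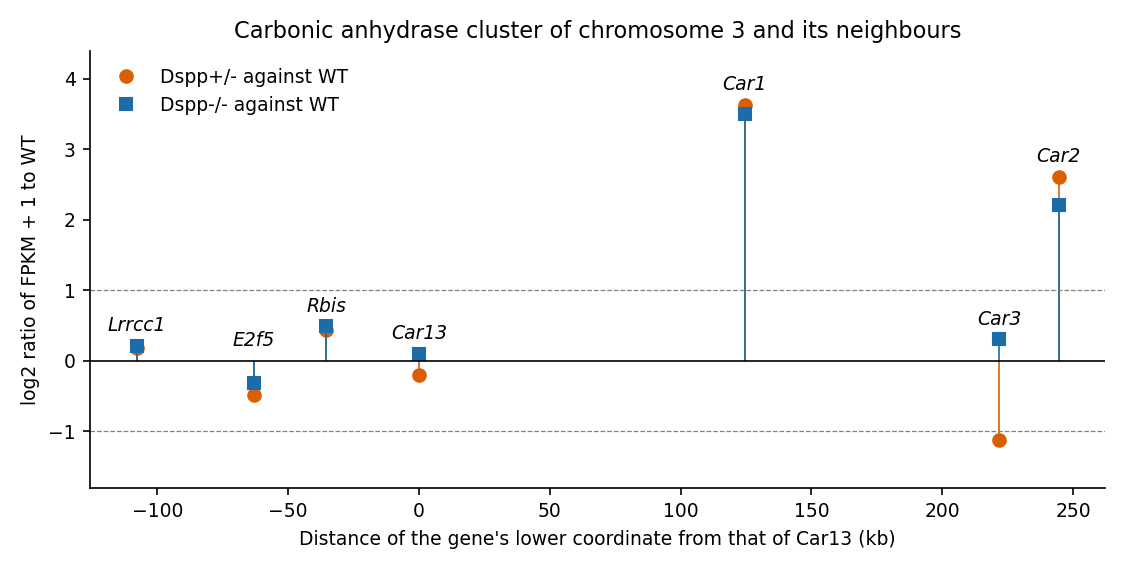
Log2 ratio of FPKM + 1 to WT, for Dspp+/- (circles) and Dspp-/- (squares), against the distance in kilobases of each gene's lower coordinate from that of Car13; dashed lines mark 2-fold and predicted genes near 0 FPKM are left out. Car1 at 124.5 kb and Car2 at 244.5 kb stood above the 2-fold line in both libraries, whereas Car3 at 221.8 kb was below the line in Dspp+/- alone and Car13 and the genes before it stayed within the lines.

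Car13 (ENSMUSG00000027555, chromosome 3, 14706787 to 14728062, plus strand) was the cytosolic gene nearest to WT. It was at 3.16 FPKM in WT against 2.63 in Dspp+/- and 3.46 in Dspp-/-, and the counting intervals of its ratios to WT included 1, at 0.834 (0.658 to 1.06) and 1.10 (0.875 to 1.37). Dspp-/- was above Dspp+/- beyond counting error, at 1.31 (1.05 to 1.65). The cluster as a whole therefore did not differ in 1 direction. Car3 and Car2 are 13.7 kb apart, and Car3 was lower in Dspp+/- while Car2 was higher. The genes beside Car13, Lrrcc1, E2f5 and Rbis, were under 2-fold in each comparison with WT, with log2 ratios of 0.19, -0.48 and 0.44 in Dspp+/- and 0.21, -0.31 and 0.49 in Dspp-/-.

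Among the membrane-bound enzymes, Car12 differed most. Car12 (ENSMUSG00000032373, chromosome 9, 66620968 to 66674127, plus strand) was at 3.61 FPKM in WT against 0.284 in Dspp+/- and 1.28 in Dspp-/-, from 555, 51 and 216 fragments. The WT library was the high one and the Dspp+/- library the low one. The level in Dspp+/- was 12.7-fold (9.52 to 17.3) lower than in WT, and that in Dspp-/- 2.83-fold (2.41 to 3.32) lower. Dspp-/- was 4.49-fold (3.30 to 6.22) above Dspp+/-, although on log2(FPKM + 1) this was 0.83 and not called. Only 0.115% of compared genes were below Car12 in Dspp+/-, and 36.0% were in WT. Car12 passed the filter on the mean through its WT value, which set a low place in Dspp+/- in advance.

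Summed over each list, cartilage and bone genes had the same order of libraries as Car12. Osteoclast markers had it too, at 2392, 891 and 1421 FPKM, and so did osteoclast acid secretion genes, at 688.4, 493.0 and 573.9 FPKM. Of 12 chondrocyte genes compared, 9 were called lower in Dspp+/- and 7 in Dspp-/-, with medians of -2.40 and -1.03 on the log2 scale, and 8 were called higher in Dspp-/- than in Dspp+/-. Their summed level was 2715, 1132 and 1317 FPKM. Matn1, of cartilage matrix, had only 2, 0 and 3 fragments and was not compared. The most abundant were Chad, Col2a1 and Comp, also of cartilage matrix, but Chad at 962, 643 and 523 FPKM and Comp at 462, 312 and 227 FPKM were lowest in Dspp-/-. Of 11 osteoblast genes, 10 were called lower in Dspp+/- and 2 in Dspp-/-, with a summed level of 15980, 4413 and 8865 FPKM and with Col1a1, Col1a2 and Spp1, the osteopontin gene, the most abundant. The genes nearest to Car12 were Sparc, the osteonectin gene, at 0.0857, Fkbp10, a helper of collagen folding, at 0.0928 and Wif1, a Wnt inhibitor, at 0.137. Sparc was at 4675, 1245 and 2401 FPKM. Adding 1 FPKM shrinks the log2 ratios of Car12 but hardly those of Sparc, so this nearness holds on log2(FPKM + 1) only. As a ratio of FPKM to WT, Car12 was at 0.0788 in Dspp+/- and 0.354 in Dspp-/-. The part of cartilage and bone cells, osteoclasts included, in the Car12 level was not tested.

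Car14 (ENSMUSG00000038526, chromosome 3, 95805080 to 95812003, minus strand) was at 7.65 FPKM in WT against 10.6 in Dspp+/- and 6.54 in Dspp-/-. It was above WT in Dspp+/-, at 1.38 (1.21 to 1.57), and below WT in Dspp-/-, at 0.854 (0.739 to 0.987), with the Dspp+/- library the high one. Of its exon length, 17.5% overlaps Aph1a on the other strand, and reads without strand could be counted for either gene. Car4 (ENSMUSG00000000805, chromosome 11, 84848612 to 84856870, plus strand), the lipid-anchored form of capillary walls and other surfaces, was at 5.93, 7.93 and 7.75 FPKM. Both mutant libraries were slightly above WT, at 1.34 (1.13 to 1.58) and 1.31 (1.10 to 1.55), and did not differ from each other beyond counting error, at 0.978 (0.841 to 1.14). Endothelial markers had none of 11 called in either library and a summed level of 201.4, 229.8 and 218.6 FPKM, with Cdh5, Pecam1 and Tie1, which encode proteins of the endothelial surface, the most abundant.

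Car9 (ENSMUSG00000028463, chromosome 4, 43506966 to 43513729, plus strand) was the member nearest the limit of detection. It was at 0.450, 0.588 and 0.371 FPKM, from 21, 32 and 19 fragments, and the interval of each ratio included 1, at 1.31 (0.730 to 2.38) for Dspp+/- to WT and 0.823 (0.419 to 1.61) for Dspp-/- to WT. A difference within these intervals was not detectable at this depth, and 9.29% of its exon length overlaps Gm12454 on the other strand. Of 12 genes of the hypoxia response, none was called higher or lower in either library against WT, and the medians were -0.125 and -0.089. Ldha, Pgk1 and P4ha1, of glycolysis and collagen hydroxylation, were the most abundant of them in WT, at 174, 113 and 36.4 FPKM.

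Car5b, the mitochondrial form (ENSMUSG00000031373, chromosome X, 162759818 to 162810993, minus strand), was lowest in Dspp+/-, as Car3 was. It was at 1.47 FPKM in WT against 0.640 in Dspp+/- and 2.11 in Dspp-/-, from 189, 96 and 299 fragments. The ratio of Dspp+/- to WT was 0.435 (0.337 to 0.560), that of Dspp-/- to WT was 1.44 (1.20 to 1.74), and Dspp-/- was 3.31-fold (2.62 to 4.20) above Dspp+/-. On log2(FPKM + 1) these were -0.59, 0.34 and 0.93, so none was called. Car5b lies on the X chromosome, and the part of sex in its level was not tested. The genes nearest to Car5b were Igf1, the growth factor, at 0.0877, Tef, a clock-related factor, at 0.0944 and Pfkfb3, a regulator of glycolysis, at 0.101. Adding 1 FPKM shrinks the log2 ratios of Car5b more than those of these genes, so the nearness holds on log2(FPKM + 1) only.

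Car8, the form without activity (ENSMUSG00000041261, chromosome 4, 8143362 to 8239041, minus strand), was at 4.17, 5.30 and 4.23 FPKM. It was 1.27 times (1.10 to 1.47) WT in Dspp+/- and equal to WT within counting error in Dspp-/-, at 1.02 (0.872 to 1.18). For Car4, Car8, Car13 and Car14, between 52 and 226 genes lay within 0.1 of the pair of log2 ratios, so their nearest genes, which include Herc1, Rab21 and Ubr3 for Car4, Pml and Rbm28 for Car8, Fut8, Septin11 and Ptpn12 for Car13, and Opa3 and Cry1 for Car14, do not single out a pattern.

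**Figure D3:**
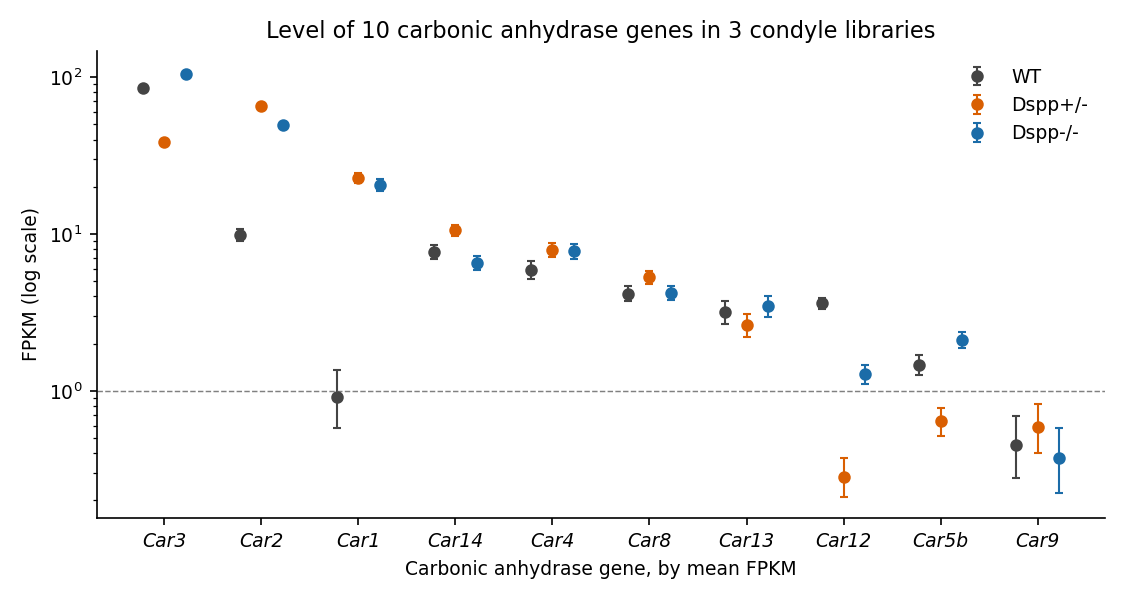
FPKM on a log axis of the 10 carbonic anhydrase genes in the 3 libraries, ordered by mean FPKM, with 95% counting intervals as bars; the dashed line marks 1 FPKM. The WT points of Car1 and Car2 lay far below those of the mutant libraries, and the Dspp+/- points of Car3, Car12 and Car5b lay below the other libraries.

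The order of levels differed between libraries. In WT, FPKM ran from Car3 through Car2, Car14, Car4, Car8, Car12, Car13, Car5b and Car1 to Car9. The counting intervals overlapped between Car8 and Car12, between Car12 and Car13, between Car5b and Car1 and between Car1 and Car9, so these neighbours were not separated. In Dspp+/- the order was Car2, Car3, Car1, Car14, Car4, Car8, Car13, Car5b, Car9 and Car12, with overlap between Car5b and Car9 alone. In Dspp-/- it was Car3, Car2, Car1, Car4, Car14, Car8, Car13, Car5b, Car12 and Car9, with overlap between Car4 and Car14 and between Car8 and Car13.

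Summed over the 10 genes, the level was 122.3 FPKM in WT against 154.8 in Dspp+/- and 201.1 in Dspp-/-. Most of the sum came from 3 genes, in different parts. Car3 made up 69.6% of it in WT, 25.0% in Dspp+/- and 52.4% in Dspp-/-. Car2 made up 8.04%, 42.2% and 24.6%, and Car1 0.744%, 14.7% and 10.2%. Without Car3 the sum was 37.2, 116.0 and 95.7 FPKM, so that the Dspp+/- library was then the highest, and without Car2 it was 112.5, 89.4 and 151.7 FPKM, so that Dspp+/- was then the lowest. Car3 was 8.66 times Car2 in WT and 2.13 times in Dspp-/-, and 0.593 times in Dspp+/-.

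**Figure D4:**
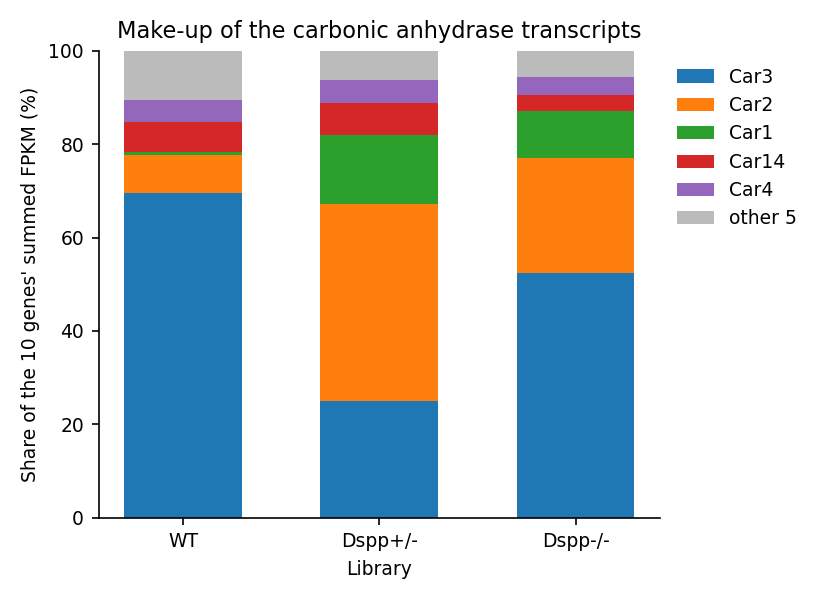
Share in percent of the summed FPKM of the 10 carbonic anhydrase genes, stacked by gene, for each library; the gray part holds the other 5 genes. Car3 filled 69.6% of the WT bar and 25.0% of the Dspp+/- bar, where Car2 filled 42.2%.

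Apart from the osteoclast acid secretion genes described above, partner genes that carry the products of these enzymes had list medians of either sign. Among all genes, 4.88% were called higher in Dspp+/- against WT and 4.05% in Dspp-/-. Of 15 bicarbonate transport genes, 8 were compared, and 1 was called higher and none lower in each mutant library, with medians of -0.199 and -0.167. The 1 was Slc4a1, the anion exchanger of red cells and also an erythroid marker, at 1.01, 54.2 and 40.5 FPKM. Slc4a2, the exchanger through which osteoclasts release bicarbonate, was at 13.8, 6.81 and 8.14 FPKM. Its ratio of Dspp+/- to WT was 0.495, but the log2 ratio of -0.919 was just under the limit, so it was not called. The next most abundant in WT were Slc26a2 and Slc26a11, at 4.51 and 3.22 FPKM. Of 14 genes compared for proton, lactate, water and gas transport, 3 were called higher in Dspp+/- and 2 in Dspp-/-, none lower, and the medians were 0.211 and 0.124. Aqp1, the water channel of red cells and vessels, Bsg, the partner of lactate transporters, and Slc16a3, a lactate transporter, were the most abundant in WT, at 235, 177 and 13.1 FPKM. Those called higher were Rhag, a gas channel of red cells, at 0.232, 11.0 and 8.63 FPKM, Rhd, its partner, with 3 fragments in WT and 373 and 248 in the mutant libraries, and in Dspp+/- only Slc16a1, a lactate transporter, at 9.42, 22.2 and 18.3 FPKM. The log2 ratio of Slc16a1 in Dspp-/- was 0.89, just under the limit. Rhag and Rhd passed the filter on the mean through the mutant libraries, which set their low place in WT in advance. Of 5 pH-sensing genes compared, none was called, with medians of 0.537 and 0.285, and Gpr4, a proton-sensing receptor, and Asic3, a proton-gated channel, were at 2.78 and 1.86 FPKM in WT. Schwann cell genes, of nerve in the tissue, had none of 6 called, and Pmp22, a myelin protein gene, was at 45.3, 35.3 and 43.7 FPKM.

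**Figure D5:**
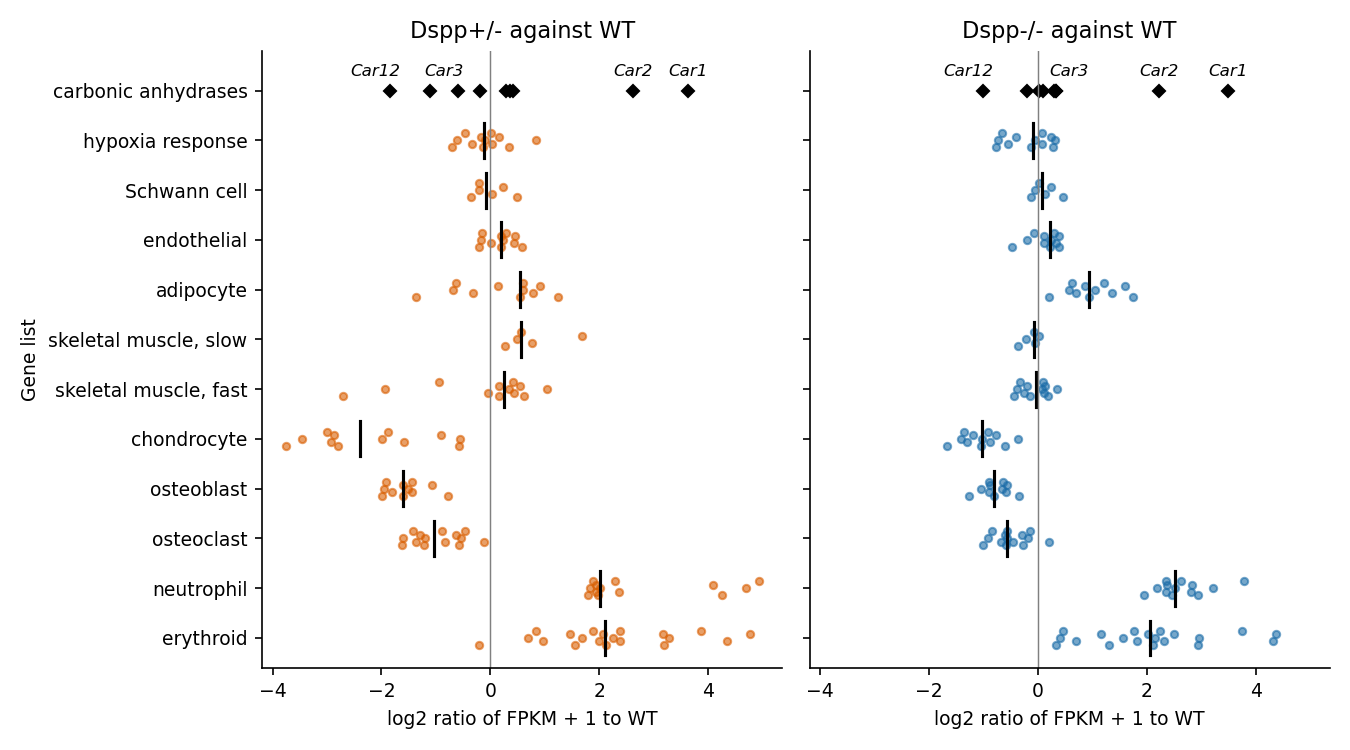
Log2 ratio of FPKM + 1 to WT for each compared gene of the marker lists (circles, with a black line at each list's median) and for the 9 compared carbonic anhydrase genes (diamonds), Dspp+/- on the left and Dspp-/- on the right. Car1 and Car2 lay among the erythroid and neutrophil genes at the right, Car12 among the skeletal genes at the left, and Car3 at -1.12 in Dspp+/- and 0.30 in Dspp-/-.

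The table held 6 further genes of the family, so that 16 were measured in all. Car7, a cytosolic form, was at 1.33, 1.27 and 0.927 FPKM, and Car11, which encodes a related protein without activity, at 1.82, 1.34 and 1.87 FPKM, both under 2-fold. Car5a, the other mitochondrial form, had 2, 1 and 1 fragments, Car6, the secreted form of saliva, 0, 3 and 5, and Car10, a form without activity, 0, 1 and 1, so these genes were at or near the floor of 3 fragments. Car15 had 3, 25 and 9 fragments, a ratio to WT of 7.14 (2.18 to 37.0) in Dspp+/-, but 65.7% of its exon length overlaps Gm20518 on the same strand and its value is uncertain.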

How the data were processed

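RNA sequencing was performed on 3 libraries of pooled mandibular condyles, 1 per genotype, and groups follow the labels. Poly(A)-selected RNA was read in pairs of 150 bases. The submitters' processing notes name FastQC 0.11.5, HISAT2 2.1.0, StringTie 1.3.3b, DESeq 1.28.0 and the build hg38, which is human, although the identifiers are those of mouse genes. The labels mention triplicates, whereas the table has 1 value for each gene and genotype. The authors deposited 1 table of values, read here as FPKM because the values are whole fragments over exon length. The table's positions are of an unnamed build, as start and end equal those of GENCODE M21 (GRCm38) for only 589 genes.

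Fragments were recovered as FPKM times merged exon length for 26652 genes with an identifier in GENCODE M21. Of genes under 100 fragments, 98.9% came out whole within 0.05 in each library. This share includes genes at 0, which are whole at any depth, and the depth was itself chosen to make values whole. The depth was 20241577 fragments in WT against 23613618 in Dspp+/- and 22253156 in Dspp-/-, and the floor was 3 fragments. Genes averaging 1 FPKM or more were compared on log2(FPKM + 1) with a 2-fold threshold, and 95% Clopper-Pearson intervals cover counting error only, since PCR reads are not independent molecules. Medians, lists and nearest genes (Euclidean distance over both log2 ratios to WT) are descriptions. The recovery and calls were tested on simulated data with counting error only. Such data cannot show how the calls fare with differences between animals or libraries. Named genes are the members, the other family genes, the 3 most abundant genes in WT of each list with any called against the rest, and the 3 nearest genes of each member; other genes were named after their values were seen. The members and lists were chosen with earlier results of these data known. Shared 100-base sequences, overlaps and coding sequences come from GENCODE M21, promoters from RefSeq. Both comparisons with WT share that library. Alternatives were 10 in number: pseudocounts of 0.1 and 5, a minimum mean of 5 FPKM and none, 4 scalings, and 1.5-fold and 4-fold thresholds. Computations used Python 3.11.15 with scipy 1.17.1, pandas 2.3.3 and numpy 2.4.6, and plots used matplotlib 3.10.9. Dspp and Car15a were not analysed here, and some genes that the naming rule gives are not reported here.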

Additional observations from a re-analysis of the deposited data

How the results depend on the processing

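Of 180 log2 ratios of members under another pseudocount or scaling, 173 kept their direction. Another pseudocount cannot turn a direction, so only the scalings could have done so. The 7 that turned had a size of at most 0.101 as reported. They were Car13 in Dspp-/- against WT (-0.03 with scaling without hemoglobin, immunoglobulin and muscle genes), Car4 in Dspp-/- against Dspp+/- (0.01 with median-ratio scaling, 0.024 with upper-quartile scaling and 0.017 with scaling without mitochondrial genes) and Car8 in Dspp-/- against WT (-0.007, -0.005 and -0.119 with median-ratio scaling, upper-quartile scaling and scaling without hemoglobin, immunoglobulin and muscle genes). None of the members called at 2-fold turned, but none could have, because the largest shift by a scaling was -0.194. In Dspp+/- against WT, 4 members were called, 2 at 4-fold, 3 without Car12 at a mean of at least 5 FPKM or a pseudocount of 5, and 5 with Car5b at 1.5-fold or a pseudocount of 0.1. In Dspp-/- against WT, 3 were called, with Car12 lost at a pseudocount of 5, a mean of at least 5 FPKM, a 4-fold threshold and scaling without mitochondrial genes, where it was at -0.964. Between the mutant libraries the count of 1 became 3 with a pseudocount of 0.1, 4 at 1.5-fold and 0 at 4-fold. In Dspp+/- against WT, Car5b was at -1.09 with a pseudocount of 0.1 and Car12 at -0.70 with a pseudocount of 5.

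Over all genes, 1009 were called in Dspp+/- against WT, and 1576 with a pseudocount of 0.1, 341 with a pseudocount of 5, 553 at a mean of at least 5 FPKM, 2667 at 1.5-fold and 148 at 4-fold. For Dspp-/- against WT 706 were called, and 1199, 181, 338, 2222 and 109 under the same settings. Between the mutant libraries 215 were called, and 437, 72, 109, 1004 and 28 under these, with 342 without a filter. Scaling without hemoglobin, immunoglobulin and muscle genes shifted ratios by -0.194 in Dspp+/- and -0.17 in Dspp-/-, and moved the share of higher among called genes from 63.0% to 45.2% and from 74.6% to 56.5%. No paired analysis was possible because each genotype has 1 library. With 1 library per genotype, no value separates genotype from pool, library or the sex of the animals.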
